A study of Mus musculus with 14 samples.

Results

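Experiment B of this study held 8 of its 14 microarrays, all from SCp2 cells, a mouse mammary epithelial cell line. Its titles name 4 arrays as MMP3 and 4 as control, and the arrays were chosen by those titles as deposited. Each label had 1 array from cells plated at 25K, 50K, 100K and 250K in 35 mm dishes, as the labels write the number of cells plated. The other 6 arrays form experiment A, with 1 MMP3 and 1 control array at 50K, 100K and 250K. In both experiments the cells grew in DMEM with 2% FCS, the treated dishes received MMP-3 and the control dishes did not, and RNA was isolated after 3 days. The labels state neither the dose nor the source of the MMP-3. Every array came from 1 cell line, and the 4 arrays of a label differ in plating density, so the spread within a label holds density as well as error. The labels do not say whether dishes were handled on separate occasions, so p-values measure only the spread between these arrays.

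MMP-3, also called stromelysin-1, is a secreted protease that cuts matrix and cell-surface proteins, among them E-cadherin. In mammary epithelial lines such as SCp2 it is known for loosening cell contacts and for starting a change toward a mesenchymal form through the Rac1 splice form Rac1b. Plating density acts on the same cells through contact and crowding, which restrain entry into the cell cycle and the YAP and TEAD transcription programme.

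The values are RMA-normalised log2 expression that the files hold centred to a median of 0 over the 14 arrays for each probe set. They therefore give the position of an array relative to the others for a gene, called relative log2 expression here, and no level of one gene against another. They also cannot show whether epithelial genes were expressed at the level of an epithelial line. The difference of a gene is the mean over the 4 densities of MMP3 minus control, with its standard error (SE, written after ±, from 4 arrays a label) from a linear model in limma with terms for label, density and their product. A second value in brackets, marked "without", is the difference from the 7 arrays other than MMP3 100K. The density slope of a gene in experiment A is its mean change in log2 for each doubling of plated cells, averaged over both labels. Of 18193 genes with a probe set, 11812 varied enough over the 14 arrays to be tested (SD of at least 0.049). In bulk RNA, fewer cells of a type and less RNA per cell cannot be told apart.

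The arrays of experiment B did not all sit where their titles would place them. Values over all genes had an SD of 1.29 on the array titled MMP3 100K, against 0.343 to 0.622 on the other 7, so differences and list medians are given with and without it. In experiment A, the interferon-induced gene Ifit1 was higher under the MMP3 label by 6.61 ± 0.20 and the YAP target Ccn2 by 4.09 ± 0.23. In experiment B, Ifit1 was at -2.93, 3.71, -2.93 and 4.26 on the controls at 25K, 50K, 100K and 250K, and at -2.83, 4.53, -2.97 and 5.15 on the MMP3 arrays in the same order. It was high at 50K and 250K and low at 25K and 100K under both labels, with a difference of 0.44 ± 2.72 (2.04 without) and overlapping labels. Over all genes, the arrays titled 50K and 250K correlated with the MMP3 minus control difference of experiment A (r from 0.48 to 0.75), and those titled 25K and 100K correlated against it (r from -0.73 to -0.40), whichever label they carried. Without MMP3 100K these ranges were 0.38 to 0.74 and -0.84 to -0.63. Against the density slope of experiment A, the 4 controls had r from -0.63 to -0.21 and the MMP3 arrays had 0.48, -0.26, 0.49 and 0.43. Without MMP3 100K the controls had -0.45, -0.57, -0.0006 and -0.52 and the 3 other MMP3 arrays 0.57, -0.056 and 0.58, so the control at 100K and the MMP3 array at 50K then lay near 0. All of these are correlations across genes, which are not independent replicates, and they use values centred over the arrays used. What produced this arrangement was not tested, and below "MMP3" and "control" mean only the titles.

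**Figure D1:**
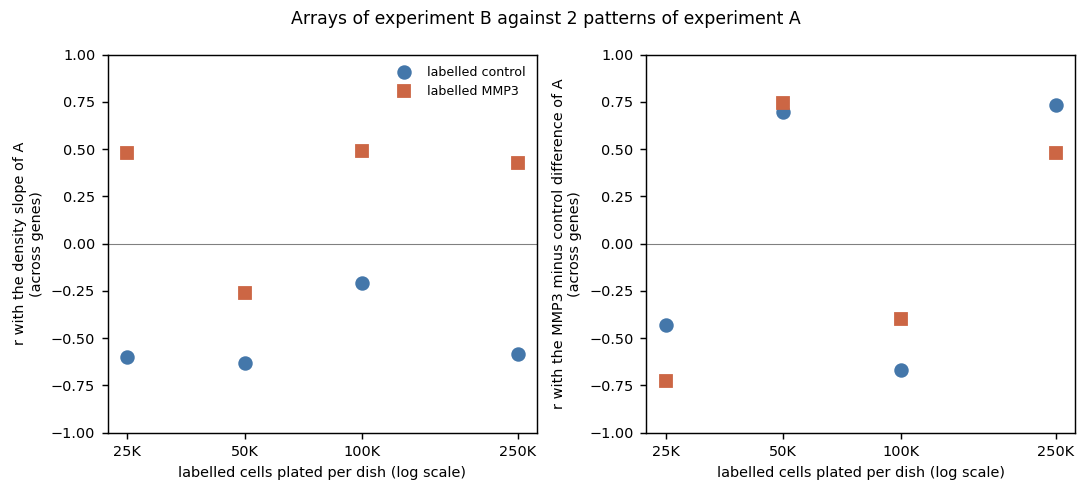
Correlation across 11812 genes of each array of experiment B (values centred over its 8 arrays) with the density slope of experiment A (left) and with the MMP3 minus control difference of experiment A (right), against the labelled number of cells plated (log scale); circles are arrays labelled control, squares arrays labelled MMP3. On the left the 4 controls lie between -0.63 and -0.21 and 3 of 4 MMP3 arrays between 0.43 and 0.49 (without MMP3 100K, -0.57 to -0.0006 for the controls and -0.056 to 0.58 for the other MMP3 arrays); on the right the arrays separate by 50K and 250K against 25K and 100K under both labels.

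The question asked of experiment B was which genes differed between the MMP3 and control titles, and whether they were those that moved with density in experiment A. Genes of DNA replication and ribosome production were lower on the MMP3 arrays, and growth-arrest genes were higher, but no gene passed the test. Of 11812 genes, 0% had an adjusted p under 0.05 (limma, Benjamini-Hochberg), and the lowest adjusted p was 0.305. Without MMP3 100K none passed either, with a lowest adjusted p of 0.149. At an unadjusted p under 0.05 there were 1373 genes, 726 higher (6.15%) and 647 lower (5.48%), and 2168 without MMP3 100K. In a paired fit with density as the block, 2440 genes had an unadjusted p under 0.05 and 0 passed the adjusted test. The 4 MMP3 arrays lay wholly above the 4 controls for 614 genes (5.2%) and wholly below for 637 (5.39%), and without MMP3 100K for 839 (7.1%) and 796 (6.74%). With array weights fitted gene by gene, chosen after seeing the data and giving MMP3 100K a weight of 0.0731 against 0.43 to 4.81 for the others, 2488 genes passed (21.1%), 1329 higher and 1159 lower. The product of label and density was past the adjusted threshold for 0% of genes (105 at an unadjusted p under 0.05). Over the 12 arrays at 50K to 250K, the MMP3 minus control difference differed between the experiments for 0% of genes by the adjusted test (2147 unadjusted), whereas within experiment A it passed for 2960 genes (25.1%), a count that was 0 with any A array left out. Over all genes, 6094 were higher and 5718 lower, and at every density 2095 were higher and 2035 lower. In experiment A, 5459 genes had a positive density slope and 6353 a negative one. Below, every count by direction, density slope or labels that do not overlap is to be read against these background values. There, "higher" or "lower" states a measured difference that did not pass the adjusted test.

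The members of the DNA replication machinery were lower together. The origin recognition complex marks replication origins, Cdc6 and Cdt1 load the Mcm2 to Mcm7 helicase onto them, and the GINS proteins with Cdc45 activate it. All 41 genes tested from the list of 43 were lower on the MMP3 arrays. At each of the 4 densities 32 of them were lower, against 2035 of 11812 over all genes. For 22 the labels did not overlap (background 5.39%). The median difference of the 41 genes was -0.82, and -0.81 without MMP3 100K, beside 0.01 over all genes. By pair it was -0.51 at 25K, -0.20 at 50K, -1.15 at 100K and -1.45 at 250K. In experiment A all 41 had a negative density slope (6353 of 11812 over all genes), with a median of -0.29 log2 per doubling. None of the 41 passed the adjusted test. With gene-by-gene array weights, chosen after seeing the data, 35 of the 41 passed it, against 21.1% of all genes. The weights were fitted on these same arrays and the list was written with earlier results known, so that count is no separate evidence.

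The promoters of Orc1, the largest origin recognition subunit, and of Mcm5, a helicase subunit, are shown because both were among the largest negative differences and hold the letters of a motif known for E2F factors, the regulators of S-phase genes. They are the 160 bases before the RefSeq start on GRCm38.p6, on the gene's strand, at chr4:108579294-108579453 (plus strand) for Orc1 and chr8:75109349-75109508 (plus strand) for Mcm5. Capitals mark matches to TTTCGCGC or TTTGGCGC on either strand, and in Mcm5 2 matches overlap.
Orc1: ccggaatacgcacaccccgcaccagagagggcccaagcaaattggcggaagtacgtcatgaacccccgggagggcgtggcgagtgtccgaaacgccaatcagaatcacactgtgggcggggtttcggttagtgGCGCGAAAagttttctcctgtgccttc
Mcm5: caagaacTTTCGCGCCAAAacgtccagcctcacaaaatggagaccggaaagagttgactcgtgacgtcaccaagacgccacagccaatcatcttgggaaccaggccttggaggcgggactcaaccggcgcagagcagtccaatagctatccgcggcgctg
Of the 41 replication genes, 34 had a promoter in the RefSeq table, from 250 bases before to 50 after the start. Either motif stood in 10 of these 34 (29.4%), in 6 of the 18 whose labels did not overlap (33.3%), and in 178 of 9561 promoters of all tested genes (1.86%). Of the other replication genes named below, Fen1, Gins3 and Mcm2 had no match in this window. The match of Mcm3 lay outside the 160 bases before its start. A match describes letters in this window and not binding.

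For Orc1, the controls at 25K, 50K, 100K and 250K were at 0.73, 0.34, -0.20 and 0.26 in relative log2 expression, and the MMP3 arrays at -1.84, -0.28, -3.05 and -3.07. The arrays titled MMP3 100K and 250K were the lowest, and that at 50K was only just below the lowest control. The difference was -2.34 ± 0.57, and -2.09 without MMP3 100K, beside a density slope of -0.64 ± 0.15 in experiment A (adjusted p = 0.309 for the difference, limma). Mcm5 was at 0.60, 0.23, 0.27 and -0.06 on the controls and at -0.56, -0.36, -2.28 and -2.19 on the MMP3 arrays, again without overlap and lowest at 100K and 250K. Its difference was -1.61 ± 0.31, and -1.37 without MMP3 100K. The helicase subunit Mcm3 differed by -1.62 ± 0.37 (-1.44 without) and Mcm2 by -1.17 ± 0.22 (-1.06 without), also with separate labels. Gins3, a GINS subunit, was at 0.54, 0.26, 0.01 and -0.01 on the controls and -0.25, -0.81, -3.12 and -2.33 on the MMP3 arrays, a difference of -1.83 ± 0.43 (-1.42 without). The difference of the flap endonuclease Fen1, which trims Okazaki fragments, was -2.13 ± 0.87, and MMP3 100K at -4.39 lay far below the other MMP3 arrays, so the difference without it was -1.32.

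**Figure D2:**
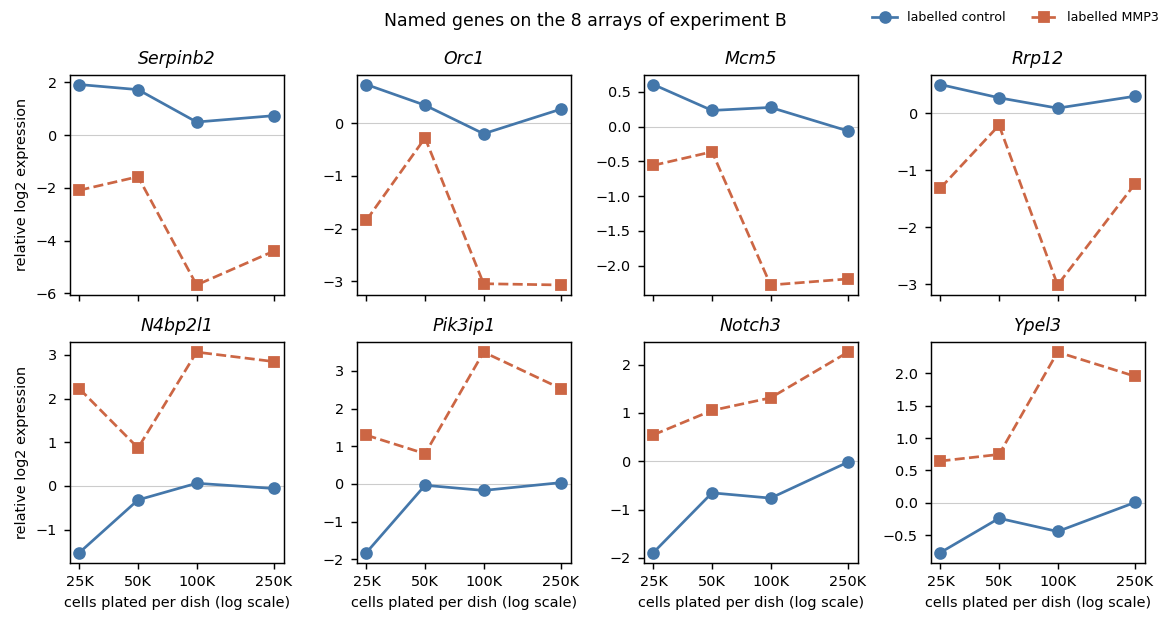
Relative log2 expression of 8 genes on the 8 arrays of experiment B against the labelled number of cells plated per dish (log scale); circles with solid lines are arrays labelled control, squares with dashed lines arrays labelled MMP3, and each point is 1 array. Serpinb2, Orc1, Mcm5 and Rrp12 were lower on every MMP3 array than on any control, and N4bp2l1, Pik3ip1, Notch3 and Ypel3 higher.

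Genes that control entry into S phase, for or against it, mostly followed the same direction. Of 21 tested genes for G1 cyclins, E2F factors and their regulators, 19 were lower and 9 had labels that did not overlap, with a median difference of -0.60 and of -0.57 without MMP3 100K. Mybl2, which activates genes of late S phase and mitosis, was at 0.75, 0.27, 0.35 and -0.09 on the controls and -0.13, -0.19, -2.19 and -2.11 on the MMP3 arrays. Its difference was -1.47 ± 0.32 (-1.22 without), carried mostly by the 100K and 250K arrays. Ccne2, a cyclin E, differed by -1.23 ± 0.19 (-1.15 without), and Skp2, which marks the inhibitor p27 for destruction, by -1.07 ± 0.20 (-0.96 without). Cdk6, a G1 kinase, differed by -1.30 ± 0.76, but by -0.57 without MMP3 100K, where it was at -3.34. Ccnd1, cyclin D1, was at 0.16, -0.01, 0.18 and 0.26 on the controls and -0.21, 0.31, -1.35 and -0.16 on the MMP3 arrays, a difference of -0.50 ± 0.38 (-0.17 without) with overlapping labels.

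Genes of mitosis did not move as one. The median difference of 29 spindle, kinetochore and mitotic kinase genes was -0.21, 22 were lower, and for 1 gene the labels did not overlap. The pairs disagreed in sign, with medians of 0.09 at 25K, -0.21 at 50K, 0.31 at 100K and -1.20 at 250K. Without MMP3 100K the median was -0.55, and without MMP3 250K it was 0.13, so its direction rested on the 250K array. The gene without overlap was Tpx2, a spindle assembly factor, which differed by -1.03 ± 0.17 (-0.97 without). Its 3 other probe sets lay nearer 0, from -0.42 to -0.24. Mki67, the proliferation marker Ki-67, was at 0.28, -0.18, 0.35 and -0.20 on the controls and 0.61, -0.20, 0.02 and -0.86 on the MMP3 arrays, a difference of -0.17 ± 0.22 (-0.27 without), and the MMP3 array at 250K was the lowest.

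Ribosome production genes were lower too. Of 24 genes, 23 were lower and 18 had labels that did not overlap, with a median difference of -0.87 and of -0.61 without MMP3 100K. By pair the medians were -0.75, -0.19, -1.36 and -0.75 from 25K to 250K, and in experiment A 23 of 24 had a negative density slope. Rrp12, which acts in the export of ribosomal subunits, was at 0.50, 0.27, 0.09 and 0.30 on the controls and -1.31, -0.21, -3.02 and -1.24 on the MMP3 arrays. Its difference was -1.74 ± 0.60, and -1.22 without MMP3 100K. Odc1, the first enzyme of polyamine synthesis, differed by -1.27 ± 0.33 (-1.01 without). The RNA polymerase I subunits Polr1a and Polr1b differed by -1.18 ± 0.35 (-0.90 without) and -1.25 ± 0.42 (-0.91 without). Myc, which drives many of these genes, was at 0.62, -0.02, 0.81 and 0.14 on the controls and 0.74, 0.09, 0.15 and 0.01 on the MMP3 arrays, with a difference of -0.14 ± 0.25 (-0.13 without) that lay within its error. Without the control at 100K that difference was 0.02.

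Growth-arrest genes stood on the other side. Of 26 tested genes linked to quiescence and to FoxO factors, which act when PI3K signalling is low, 24 were higher and 6 had labels that did not overlap (background 5.2%). The median difference was 1.07, and 0.74 without MMP3 100K, and 24 of the 26 had a positive density slope in experiment A. Pik3ip1, an inhibitor of PI3K, was at -1.82, -0.04, -0.17 and 0.04 on the controls and 1.29, 0.80, 3.50 and 2.53 on the MMP3 arrays. The control at 25K was the lowest array and MMP3 100K the highest, and the difference was 2.53 ± 0.58, or 2.10 without MMP3 100K. Crebrf, a negative regulator of the stress factor CREB3, was at -1.86, -0.33, -0.56 and 0.07 on the controls and 1.02, 0.63, 2.12 and 1.91 on the MMP3 arrays, a difference of 2.09 ± 0.35 (1.90 without). Ypel3, a growth-suppressing member of the yippee family, differed by 1.78 ± 0.29 (1.53 without), and its relative Ypel2 by 2.53 ± 0.48 (2.30 without). Cdkn1b, the cell cycle inhibitor p27, was at -0.20, -0.71, 0.07 and -0.83 on the controls and 0.67, -0.28, 1.88 and 0.50 on the MMP3 arrays, with a difference of 1.11 ± 0.51 (0.72 without) and overlapping labels.

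**Figure D3:**
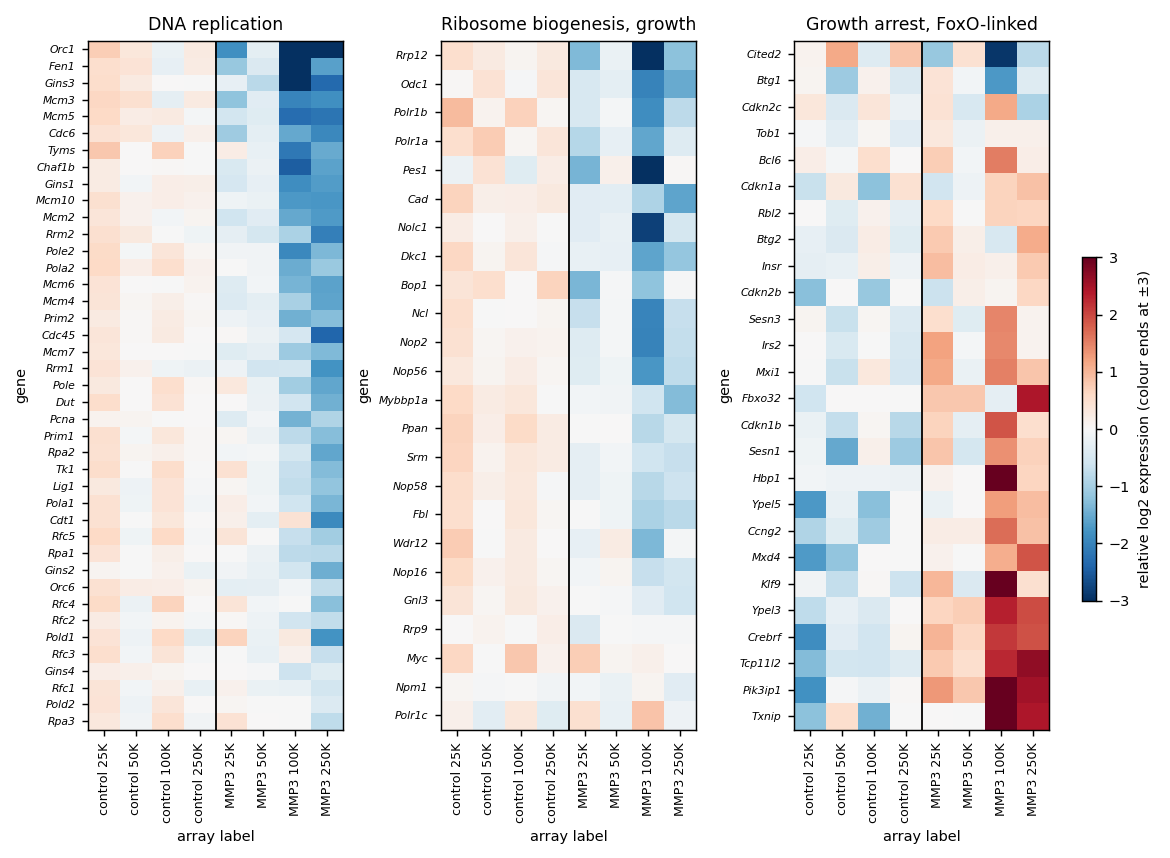
Relative log2 expression (colour, ending at ±3) of the tested genes of 3 lists, 1 gene a row sorted by difference, on the 8 arrays of experiment B in columns; the black line separates arrays labelled control (left) from arrays labelled MMP3. The replication and ribosome lists are lowest on MMP3 100K and 250K, and the growth-arrest list is highest there, while the 50K pair shows the smallest differences, with medians of -0.20, -0.19 and 0.42.

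Among all genes, those named as largest were the 15 highest and 15 lowest by difference among 154 higher and 145 lower genes with an unadjusted p under 0.01 and no overlap. The highest was N4bp2l1, at -1.53, -0.32, 0.06 and -0.06 on the controls and 2.22, 0.87, 3.06 and 2.85 on the MMP3 arrays, a difference of 2.71 ± 0.50 and of 2.48 without MMP3 100K. Notch3, a Notch receptor, was at -1.89, -0.65, -0.76 and -0.02 on the controls and 0.55, 1.05, 1.31 and 2.26 on the MMP3 arrays. Within each label the 25K array was the lowest and the 250K array the highest for Notch3, and the difference was 2.12 ± 0.21, or 2.19 without MMP3 100K. The nuclear receptor Rora was higher by 2.20 ± 0.57 (1.79 without), and Tfcp2l1, a transcription factor of epithelial and stem cells, by 1.85 ± 0.39 (1.87 without). Aldoc, the brain form of aldolase, was higher by 1.84 ± 0.29 (1.58 without), the deacetylase Hdac11 by 1.80 ± 0.45 (1.39 without), and Tcp11l2 by 2.26 ± 0.30 (2.11 without). The differences of Rab40b, Dzip1, Cnnm2 and Ccpg1os were 2.18 ± 0.49 (2.40 without), 2.05 ± 0.50 (1.81 without), 1.92 ± 0.45 (1.52 without) and 1.89 ± 0.35 (1.81 without). All 15 had a positive density slope in experiment A.

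The lowest was Serpinb2, an inhibitor of urokinase-type plasminogen activator. It was at 1.92, 1.73, 0.50 and 0.74 on the controls and -2.09, -1.58, -5.69 and -4.40 on the MMP3 arrays, so each MMP3 array was below every control, and lowest at 100K and 250K. Its difference was -4.66 ± 0.75, or -4.02 without MMP3 100K, and its density slope in experiment A was -1.76 ± 0.17, while its MMP3 minus control difference there was 0.56 ± 0.33. The transferrin receptor Tfrc, which takes up iron, differed by -2.001 ± 0.431 (-1.82 without). Bcat1, an aminotransferase of branched-chain amino acids, differed by -2.25 ± 0.38 (-2.41 without), and Dusp9, a phosphatase of MAP kinases, by -2.15 ± 0.53 (-2.09 without). Col12a1, a fibril-associated collagen, differed by -1.76 ± 0.36 (-1.55 without), C1qtnf3, a secreted protein of the C1q family, by -2.36 ± 0.57 (-2.15 without), and Eme1, a DNA repair nuclease subunit, by -1.62 ± 0.38 (-1.34 without). Lrr1 and the endocytic adaptor Sh3kbp1 differed by -1.61 ± 0.39 (-1.33 without) and -1.49 ± 0.21 (-1.38 without). The nucleoporin Nup133 differed by -1.67 ± 0.28 (-1.47 without), but another of its probe sets had the opposite sign, at 0.12. Other probe sets of Notch3, Rab40b, Tfcp2l1, Aldoc and Bcat1 lay nearer 0, at 0.071, 0.069, 0.10, 0.14 and from -0.058 to -0.048. Those of Rora ran from 0.010 to 2.19, of Dusp9 from -0.96 to -0.058 and of Mcm3 from -1.32 to -0.050. That of Cnnm2 was at 0.35, and those of Tfrc were at -0.79 and -0.75. When probe sets of a gene were averaged, 14 of the 30 genes had a difference over 1.5 times smaller, among them Notch3 at 1.10, Bcat1 at -0.78, Orc1 at -1.52 and Mcm5 at -1.02. All 15 had a negative density slope in experiment A. All 30 genes had adjusted p-values from 0.305 to 0.317 (limma).

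The differences of experiment B resembled the density slopes of experiment A across the whole array. The correlation across 11812 genes was r = 0.82 (Spearman's rho 0.79), and 8975 genes (76.0%) had the same sign in both. Without MMP3 100K it was 0.81 with 9285 genes (78.6%). The 2 experiments share no array, but they share the normalisation and the choice of genes by SD over all 14, and genes are not independent. Each pair alone correlated with the slope, with r of 0.79 at 25K, 0.58 at 50K, 0.50 at 100K and 0.72 at 250K. Of the 614 genes whose MMP3 arrays lay above all controls, 591 (96.3%) had a positive slope in experiment A, and of the 637 below, 622 (97.6%) had a negative one. With the MMP3 minus control difference of experiment A, the correlation was -0.21, and 0.07 without MMP3 100K.

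In units of plated cells, a regression through 0 of the B difference on the A slope gave 2.24 doublings, and 1.74 without MMP3 100K. Experiment A itself spans 2.32 doublings between 50K and 250K. By pair the values were 2.33 doublings at 25K, 1.13 at 50K, 3.05 at 100K and 2.43 at 250K, where the titles give 0 doublings between the arrays of a pair. Such a value also grows with the spread of an array, so it is no measure of plated cells alone. The 100K pair, which holds MMP3 100K, had the highest value but the lowest r, 0.50, with 63.8% of genes of the same sign. The density slope within experiment B, averaged over both labels, correlated with that of experiment A at r = 0.29. For the slopes of experiment A, 0% of genes passed the adjusted test (limma, lowest adjusted p = 0.105), and 3506 had an unadjusted p under 0.05. With single arrays left out, r ranged from 0.59 without the A control at 250K to 0.82, and every value was positive.

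**Figure D4:**
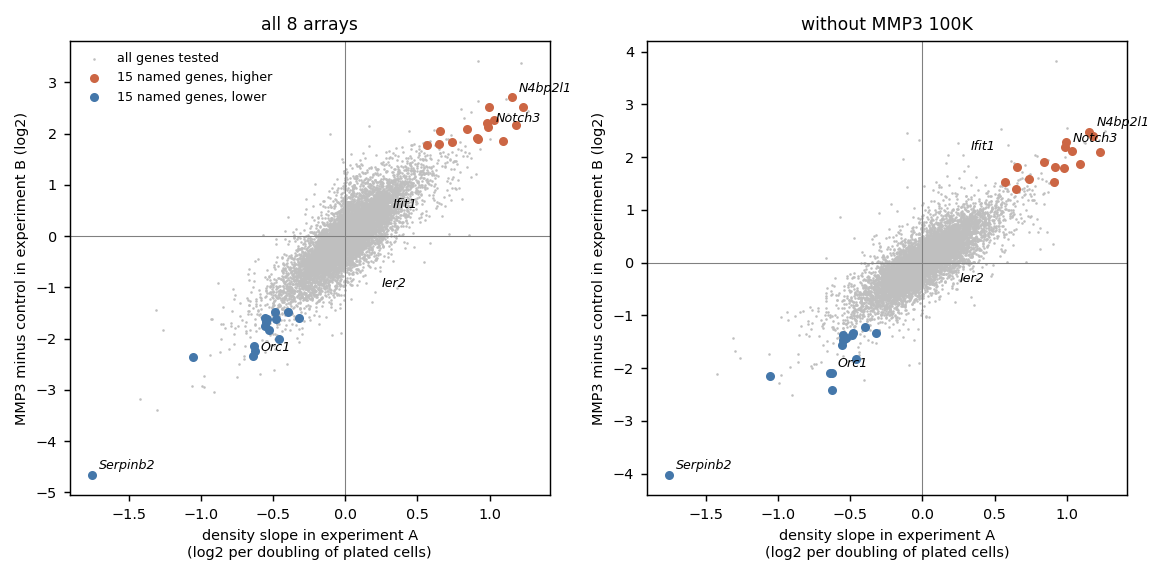
Difference of MMP3 minus control in experiment B (log2, vertical) against the density slope in experiment A (log2 per doubling of plated cells, horizontal) for 11812 genes (grey points), from all 8 arrays (left) and without MMP3 100K (right); coloured points are the 15 named highest and 15 named lowest genes, and 6 genes carry their names. The points lie along a rising band, with r of 0.82 on the left and 0.81 on the right, and Serpinb2 lies at the far lower left in both.

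A minority of genes departed from that pattern. Of the 614 and 637 genes with separate labels, the largest opposite to its slope was Ier2, an immediate-early gene, at 0.27, 0.17, -0.10 and 0.03 on the controls and -0.69, -0.21, -2.83 and -0.28 on the MMP3 arrays. Its difference was -1.10 ± 0.65 beside a slope of 0.21 ± 0.17, and without MMP3 100K the difference was -0.48. Zdhhc2, a palmitoyltransferase, differed by -0.91 ± 0.19 (-1.03 without) with a slope of 0.02 ± 0.26, which lay within its error of 0. Both were singled out after their values were seen.

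Genes of the actin cytoskeleton and of growth-factor signalling were lower, with wide spread. Of 27 targets of serum response factor (SRF) and actin genes, 26 were lower, but 2 had separate labels, Srf and Acta2. At every density 22 were lower, against 2035 of 11812 over all genes. The list medians of the arrays at 50K and 250K stood above those at 25K and 100K under both labels. The median difference was -0.57, and -0.33 without MMP3 100K, while in experiment A the MMP3 minus control median was 0.56. Srf itself was at 0.03, 0.05, 0.09 and 0.21 on the controls and -0.23, -0.03, -0.79 and -0.31 on the MMP3 arrays, a difference of -0.44 ± 0.19 (-0.29 without), and Acta2, smooth muscle actin, differed by -1.04 ± 0.46 (-0.63 without). YAP and TEAD targets had a median of -0.68, and -0.39 without MMP3 100K, with 17 of 22 lower and 1 separate, Ajuba, a LIM protein that binds the Hippo kinase LATS, which differed by -0.94 ± 0.46 (-0.53 without). Ccn2, a secreted YAP target, was at 0.14, 3.35, -0.69 and 2.73 on the controls and -2.02, 1.89, -7.14 and -0.79 on the MMP3 arrays, a difference of -3.40 ± 2.20 and of -1.67 without MMP3 100K. Immediate-early and ERK feedback genes had a median of -0.85, and -0.48 without MMP3 100K, with 16 of 19 lower and 1 separate, Ier2.

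Matrix and contact genes, on which MMP-3 is known to act, showed no common direction. Of 20 proteases and inhibitors, 14 were lower, with a median of -0.47 and -0.28 without MMP3 100K, and 2 had separate labels, Serpinb2 and Adamts1. Adamts1, a secreted metalloprotease, was at 0.87, 0.32, 0.55 and 0.15 on the controls and -0.34, -0.30, -5.45 and -2.81 on the MMP3 arrays, a difference of -2.70 ± 1.02 (-1.73 without). Of 34 junction and epithelial genes, 17 were higher and 17 lower, with a median of -0.002, and 0.24 without MMP3 100K. Cdh1, E-cadherin, was at -0.27, 0.43, -0.40 and 0.41 on the controls and -0.64, 0.35, -0.91 and 0.27 on the MMP3 arrays, a difference of -0.28 ± 0.39 (-0.023 without), and it was higher at 50K and 250K than at 25K and 100K under both labels. Nectin4, a cell adhesion molecule and the junction gene with separate labels, differed by 1.48 ± 0.34 (1.43 without). Of 14 mesenchymal genes none had separate labels, and their median was -0.48, or -0.18 without MMP3 100K. Vim, vimentin, was at 0.05, 1.11, -0.56 and 0.89 on the controls and -1.59, 0.16, -2.21 and -0.50 on the MMP3 arrays, a difference of -1.41 ± 0.69 (-0.98 without), and fibronectin, Fn1, differed by -1.62 ± 0.37 (-1.496 without). Rac1 differed by -0.08 ± 0.19 (-0.043 without), and 1 probe set for the gene does not tell its splice forms apart. Of 20 basement membrane and integrin genes 1 was higher (Itga5) and 1 lower (Itgb4) with separate labels, with differences of 1.04 ± 0.66 (0.43 without) and -0.54 ± 0.26 (-0.32 without). Their median was -0.14, or -0.07 without MMP3 100K, and it was 0.10 without the control at 50K. Another Itga5 probe set differed by 0.33.

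Lysosome and autophagy genes were modestly higher. Of 33 genes, 29 were higher and 6 had separate labels, with a median of 0.43, and 0.42 without MMP3 100K. Scarb2, a lysosomal membrane protein, was at -0.35, -0.49, 0.09 and -0.22 on the controls and 0.57, 0.20, 1.37 and 1.17 on the MMP3 arrays, a difference of 1.07 ± 0.25 (0.92 without). Gabarapl1, which coats autophagosomes, differed by 1.05 ± 0.29 (0.81 without), the galactosidase Gla by 0.92 ± 0.27 (0.70 without), and the autophagy receptor Sqstm1 by 1.41 ± 0.61 (0.84 without). Other probe sets lay nearer 0 for Sqstm1, at 0.37, and for Gla, from 0.07 to 0.50. Those of Scarb2 and Gabarapl1 were at 0.72 and 1.01. The letters CACGTG, the core of the motif read by the lysosomal regulator TFEB, stood in 9 of 28 lysosome gene promoters (32.1%) and in 1124 of 9561 (11.8%) of all tested genes.

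Interferon-response genes separated the arrays but not the labels. Their median over 33 genes was -1.32, 1.24, -1.44 and 2.11 on the controls from 25K to 250K, and -0.72, 2.19, -0.54 and 2.38 on the MMP3 arrays. None had separate labels, and the median difference of 0.38 became 0.99 without MMP3 100K and -0.43 without MMP3 50K. Ifi27l2a, an interferon-induced gene, was at -1.82, -1.81, -1.74 and 0.90 on the controls and -0.02, 2.86, 1.63 and 4.70 on the MMP3 arrays, a difference of 3.41 ± 0.68 (3.82 without). NF-kappaB targets and chemokines had a median of -0.40 over 14 genes, or -0.30 without MMP3 100K, with none separate, and Tnfaip3, a feedback inhibitor of NF-kappaB, differed by -0.99 ± 0.56 (-0.60 without).

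**Figure D5:**
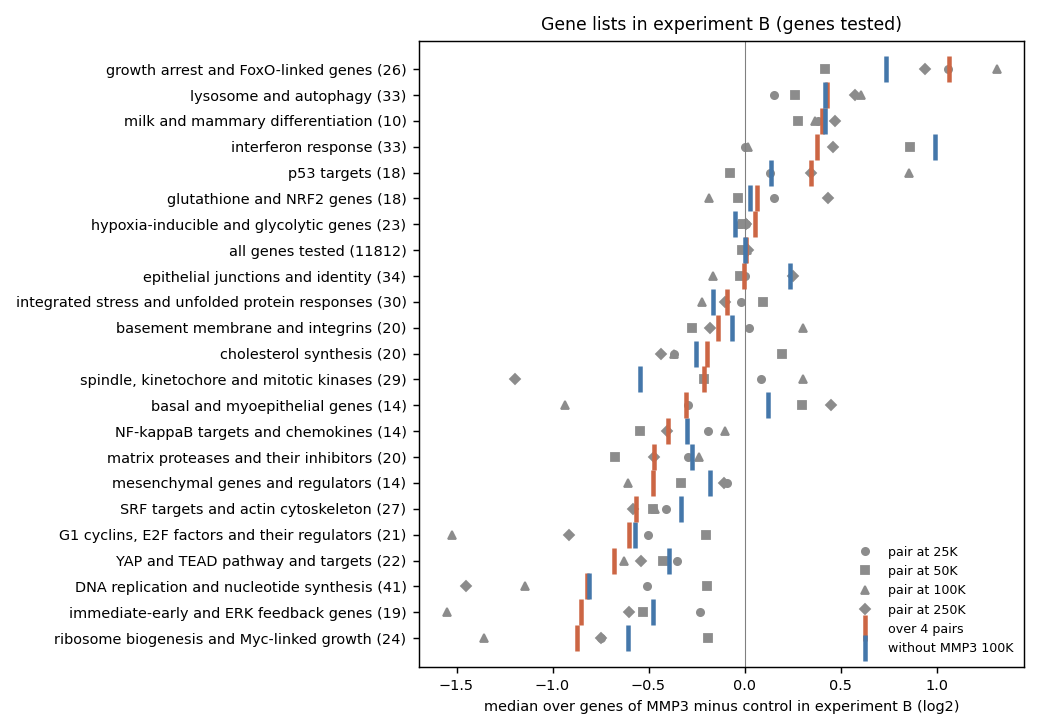
Median over the tested genes of each list (number of genes in brackets) of MMP3 minus control in experiment B (log2); grey symbols are the 4 pairs at 1 density each, the first coloured bar is the mean over 4 pairs and the second the fit without MMP3 100K. DNA replication and ribosome biogenesis lie at -0.82 and -0.87 and growth arrest at 1.07, and all genes tested lie at 0.01.

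Milk and mammary differentiation genes had a median of 0.41 over 10 tested genes, and 0.42 without MMP3 100K, with 1 separate. That gene was Stat5a, the prolactin-activated factor, at -0.46, -0.19, -0.14 and -0.18 on the controls and -0.01, 0.70, 0.06 and 1.10 on the MMP3 arrays, a difference of 0.70 ± 0.23 (0.88 without). Basal and myoepithelial genes had a median of -0.30, and 0.12 without MMP3 100K, and 2 of 14 were lower with separate labels, Acta2 and Sfn. Sfn, the epithelial 14-3-3 protein sigma, differed by -1.36 ± 0.48 (-1.04 without). Krt14, a basal keratin, was at 0.53, -0.32, 0.39 and -0.28 on the controls and 0.01, -0.24, -3.93 and 1.06 on the MMP3 arrays, so its difference of -0.86 ± 1.16 rested on MMP3 100K and was 0.25 without it. p53 targets had a median of 0.35 over 18 genes, and 0.14 without MMP3 100K, with 2 separate, Perp and Trp53inp1, which differed by 0.43 ± 0.11 (0.42 without) and 1.71 ± 0.40 (1.45 without). The medians of cholesterol synthesis, stress responses, hypoxia and glycolysis, and NRF2 genes were -0.19, -0.09, 0.06 and 0.06, and without MMP3 100K -0.26, -0.16, -0.05 and 0.03, so that of hypoxia and glycolysis changed sign. Of 23 hypoxia and glycolysis genes, Aldoc and the mitophagy receptor Bnip3 were higher with separate labels, and lactate dehydrogenase A, Ldha, and the oxygen-sensing hydroxylase Egln1 lower, with differences of -0.65 ± 0.23 (-0.47 without) and -0.89 ± 0.51 (-0.42 without). Txnrd1, thioredoxin reductase and the NRF2 gene with separate labels, differed by -0.84 ± 0.18 (-0.85 without).

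Markers of other cell types gave few tested genes. Of 8 macrophage markers 4 were tested, of 8 fibroblast markers 2, of 6 endothelial markers 0 and of 5 adipocyte markers 1, and none had separate labels. The median of the macrophage markers was -0.01 to 0.15 on the controls and -0.02 to 0.05 on the MMP3 arrays, and that of the fibroblast markers -0.65 to 0.31 and 0.11 to 1.23. Cd68, which is also a lysosomal protein, was at -0.09, 0.00, -0.17 and 0.45 on the controls and -0.00, 0.87, 4.61 and 1.82 on the MMP3 arrays, a difference of 1.78 ± 0.90 (0.92 without), highest on MMP3 100K. Of the 4 tested macrophage markers 2 were higher and 2 lower, and Cd68 had the highest difference. Lyz2 differed by -0.14 ± 0.14 (-0.16 without). Pdgfra, a fibroblast receptor, was at -0.27, -1.29, 0.62 and -0.51 on the controls and 1.67, 0.24, 1.24 and 1.50 on the MMP3 arrays, a difference of 1.52 ± 0.54 (1.51 without). Another Pdgfra probe set differed by 0.60. Dcn, the other tested fibroblast marker, was at 0.96 on MMP3 250K and from -0.02 to 0.02 on the other arrays. The difference of Dcn was 0.25 ± 0.17 (0.37 without). It varied enough to be tested only through MMP3 250K, and the remaining fibroblast markers varied too little. The fibroblast median over these 2 genes is therefore no separate sign of a rise on the MMP3 arrays. As a sign of RNA quality, the 3' minus 5' signal of the actin control probes was -0.34 to 0.08 on the controls and 0.18, -0.12, 0.65 and 0.19 on the MMP3 arrays, highest on MMP3 100K. The same measure for Gapdh was -0.06 to 0.14 on the controls and -0.005, 0.06, -0.02 and 0.02 on the MMP3 arrays, where MMP3 100K was the lowest. Both measures use centred values, so they compare arrays and give no absolute quality. The median of the bioB, bioC and bioD control probes was 0.34 on MMP3 100K and from -0.23 to 0.17 on the others. The part of these markers and of RNA quality in the results was not tested.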

How the data were processed

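Total RNA (200 ng) from SCp2 cells was hybridised to the Affymetrix Mouse 430 2.0 array. RMA produced the log2 values that the authors deposited, as the submitters' processing notes state. In the files each probe set has a median of 0 over the 14 arrays; the labels state neither the log base nor the centring, so log2 is assumed as RMA's usual scale, and the centring was read from the values, which run from -7.18 to 6.62. Depth does not apply to arrays; their number limits the precision.

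Of 45101 probe sets, 34945 had 1 gene symbol in the platform annotation, 932 several, 9160 none and 64 were controls. Symbols were updated through Entrez identifiers for 34741 and kept for 204. A gene was represented by the most variable of its probe sets (SD over 14 arrays), and genes at or above the 40th percentile of SD were tested. limma 3.58.1 in R 4.3.3 fitted label, log2 density and their product to the 8 arrays of experiment B (4 residual degrees of freedom) and, separately, to the 6 of experiment A (2 degrees). P-values were adjusted over 11812 genes by Benjamini-Hochberg. The method was tested on simulated data.

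Named genes were the 15 largest differences in each direction among genes with an unadjusted p under 0.01 and labels that do not overlap. Up to 4 genes per list, and tested genes given whatever their result, brought them to 84 in all. Mmp3, Krt18, Csn2 and Snai1 were also to be given but were not among the genes tested. A further few were named after their values were seen, as the text says. The 26 lists (607 genes, 512 tested) and the comparisons were chosen with earlier results of these data known. Alternatives were other filters and probe-set choices, a density block, 50K to 250K alone, array weights and each array left out. Gene-by-gene array weights were added after seeing the data. Promoters came from a RefSeq table on GRCm38.p6.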

Additional observations from a re-analysis of the deposited data

Results flagged for a closer look

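Among 222 groups of 4 arrays examined, 10 held an array whose gap to its nearest neighbour exceeded Dixon's 95% critical value, and chance flags about 1 in 20 groups. Among the MMP3 arrays, the 100K array stood apart for Cdk6 at -3.34, with the nearest at -0.64, for Egln1, an oxygen-sensing hydroxylase, at -2.18, with the nearest at -0.38, and for the median of the mesenchymal genes at -0.50. The MMP3 array at 250K stood apart for the fibroblast proteoglycan gene Dcn at 0.96, with the nearest at 0.02. Among the controls, the 25K array was low for Pik3ip1 at -1.82 and for Stat5a at -0.46. The control at 100K was high for the collagen gene Col6a1 at 0.45. The control at 250K was high for Ifi27l2a at 0.90, with the nearest at -1.74, and for the median of the macrophage markers at 0.15. The control at 50K had the widest values over all genes among the controls, with an SD of 0.476 against 0.386 for the next.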

How the results depend on the processing

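Of 1678 values of the 84 named genes under the 20 alternatives run for them, 1520 kept their direction and side of the threshold. Another 147 passed it in the same direction, all with default or gene-by-gene array weights, as 0 genes passed for the label under the others. The remaining 11 changed sign, in 4 genes. Those were Ifit1 (-1.17 to 2.04 with single B arrays left out), Krt14 (-2.61 to 0.25 likewise, 0.36 with array weights and 0.22 with gene-by-gene weights), Myc (-0.30 to 0.017, and 0.0031 with array weights) and Rac1 (-0.20 to 0.030). Of 519 list medians under the same alternatives 435 moved by less than their spread. Limma's default array weights stopped before converging and ranged from 0.00739 to 729. With them 10493 genes passed for the label, 9483 for its product with density, and 10540 had an unadjusted p under 0.05. The gene-by-gene weights, added after seeing the data, gave 2488 passed (21.1%) and 4462 unadjusted. Of the 84 named genes 66 passed with them. Most of the 84 were named by their differences on these same arrays, so that count is no separate evidence. The unadjusted count was 308 with 50K to 250K alone, which leaves fewer arrays, and 864 with a 60th percentile filter, which leaves fewer genes. With single arrays left out it ran from 417 without the control at 250K to 2705 without MMP3 250K, and was 458 without the control at 25K, 507 without MMP3 25K and 2168 without MMP3 100K. The count of genes with separate labels ran from 1312 to 2644, the highest without MMP3 50K, and was 2141 without the control at 100K, where fewer arrays must separate. In experiment A, 123 slopes passed with the 60th percentile filter, and the MMP3 minus control count was 1271 without a filter and 0 with any A array left out. The difference between experiments gave 0 to 75 genes with single arrays left out, the highest without the B control at 100K. The correlation with the A slope ran from 0.591 to 0.856 over 26 alternatives, and from 0.591 to 0.822 with single arrays left out. The cause of these changes was not tested where none is named. The titles give no replicate numbers but pair 1 MMP3 and 1 control array at each density, and in that paired fit, with density as the replicate block, 0 genes passed the adjusted test and 2440 the unadjusted one. With the mean of probe sets, 20 of the 84 named genes had a difference over 1.5 times smaller.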
